A study of Mus musculus with 2 samples.

Results

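The *Foxf1* and *Hand1* mesoderm cells were cells of mouse embryos at embryonic day (E) 7 that carried transcripts of the early lateral and extraembryonic mesoderm. They were chosen by their own unique molecular identifiers (UMIs, 1 per captured transcript). A cell needed at least 5 UMIs of *Foxf1*, *Hand1* and *Tdo2* together, fewer than 5 of the blood genes *Tal1*, *Lmo2*, *Etv2* and *Fli1*, fewer than 5 of the extraembryonic ectoderm genes *Elf5*, *Wnt7b* and *Esrrb*, and under 200 CPM (UMI counts scaled to a common total per cell or group of cells) over *Apoa4*, *Apoa1*, *Afp*, *Ttr* and *Rbp4* of the visceral endoderm. Of 1655 cells with at least 5000 detected genes and at most 10% mitochondrial UMIs, 120 met this rule.

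The study sequenced 1 single-cell library per genotype, so no difference between the genotypes has a replicate check and none is given a p-value. The control library was a pool of 4 embryos heterozygous for the floxed *Yap1* allele with Sox2-Cre, which GEO's labels name WT, and the *Yap1* conditional knockout (*Yap1* cKO) library was a pool of 3 littermates homozygous for the floxed allele with Sox2-Cre. By this description both groups carried the Cre driver and at least 1 floxed allele, although the study also mentions floxed littermates without Cre as controls. Both were collected fresh at E7. Sox2-Cre recombines in the epiblast and its descendants, the extraembryonic mesoderm among them, and leaves the extraembryonic ectoderm and visceral endoderm outside its reach. The labels call both samples female, yet transcripts of Y-linked genes were present in both.

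Lateral plate and extraembryonic mesoderm arise from epiblast cells that pass through the posterior primitive streak, switch on *Mesp1* as they move out, and later form the allantois, amnion and yolk sac linings, the heart and the body wall. *Foxf1* and *Hand1* encode a forkhead and a basic helix-loop-helix transcription factor of this tissue, and BMP signalling from the neighbouring extraembryonic layers supports it. YAP1 is a transcriptional coactivator restrained by the Hippo kinases LATS1 and LATS2; in the nucleus it works through the TEAD factors, and several of its known target genes encode Hippo components that restrain it in turn.

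The control library held 62 member cells of 791, or 7.84% (95% Clopper-Pearson interval 6.06 to 9.94), and the *Yap1* cKO library held 58 of 864, or 6.71% (5.14 to 8.59). These intervals, like all others here, cover counting error only. Of the 514 and 531 cells below the same limits on extraembryonic ectoderm and visceral endoderm genes, the shares were 12.1% and 10.9%. The 2 shares lay within each other's intervals, so a difference was not detectable with these cell numbers. Summed over the member cells, the control library gave 4374068 UMIs and the *Yap1* cKO library 4569077, with a median of 69632 UMIs per cell (15974 to 115450) in control cells and 70281 (30157 to 170139) in *Yap1* cKO cells. The libraries as a whole held 70573418 UMIs in 1829 barcodes and 87937858 UMIs in 1897 barcodes. They shared 2 barcode sequences, and 1 control member cell carried one of them.

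*Hand1* carried most of the rule. It had a UMI in 61 of 62 control and 58 of 58 *Yap1* cKO member cells, and *Foxf1* had one in 49 cells of each library. *Tdo2*, which encodes tryptophan 2,3-dioxygenase, was seen in 17 control and 6 *Yap1* cKO cells. The sum of the 3 genes had a median of 26 UMIs in the control (highest 149) and 15.5 in the *Yap1* cKO (highest 118). Per cell, *Foxf1* had a median of 128 CPM in control cells and 80.3 CPM in *Yap1* cKO cells, and *Hand1* a median of 292 and 145 CPM. Because these genes chose the cells, the values are given as a description, and the 3 genes are left out of every comparison between the libraries below, as are the genes of the other limits. Near the threshold, 10 control and 12 *Yap1* cKO member cells had a sum of 5 to 7, and 15 and 29 other cells that met the remaining limits had a sum of 2 to 4. In those with 5 to 7 the lateral mesoderm gene *Msx2* stood at 77.6 and 54.8 CPM, and in those with 2 to 4 at 46.5 and 30.4 CPM. *Pmp22* stood at 28.5 and 12 CPM, against 22.8 and 4.72. *Fendrr* went the other way, at 0 and 0 CPM against 0.877 and 1.35. *Bmp4* was at 7.91 and 1.99 CPM against 2.63 and 6.74, so its direction differed between the libraries.

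Lateral mesoderm genes that the rule did not use were also detected, *Pmp22* and *Msx2* in most of the cells and *Fendrr* in a minority. *Pmp22*, a peripheral myelin protein gene expressed widely in early mesoderm, had 787 UMIs in control cells and 389 in *Yap1* cKO cells, in 52 and 44 cells. *Msx2*, a homeobox gene downstream of BMP signalling, had 706 and 486 UMIs in 58 and 55 cells. *Fendrr*, a long noncoding RNA transcribed beside *Foxf1*, had 63 and 41 UMIs in 23 and 21 cells. At least 1 of the 3 was detected in 59 of 62 control and 58 of 58 *Yap1* cKO member cells, and all 3 in 23 and 21 cells. After each cell was thinned to 30000 UMIs, which left out 2 control cells, *Pmp22* was detected in 70.0% of control and 63.8% of *Yap1* cKO member cells (83.9% and 75.9% unthinned), against 2.78% and 1.41% of epiblast cells. *Fendrr* was detected in 20% and 22.4% of thinned member cells and in 0 of 216 and 0 of 213 thinned epiblast cells, where the 95% Clopper-Pearson intervals reach up to 1.69% and 1.72%. *Msx2* was detected in 91.7% and 86.2% of thinned member cells and 5.56% and 3.29% of epiblast cells. It was also in 24.7% and 35.4% of thinned extraembryonic ectoderm cells, so it does not mark mesoderm alone.

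Markers of later or neighbouring mesoderm varied widely. *Nkx2-5* and *Hcn4*, genes of the differentiating heart, had no UMI in any member cell, and neither had *Postn*. *Tbx5* had 3 control UMIs and *Tnnt2* 5 control and 1 *Yap1* cKO UMIs, while *Myl7*, a myosin light chain gene of the atrial heart, had 835 and 1141. *Gata4*, a zinc finger factor of heart and endoderm, had 464 and 438 UMIs, the LIM homeobox gene *Isl1* 78 and 68, and *Mef2c*, a MADS-box factor gene of muscle, 42 and 63. The 8 allantois genes summed to 23.3 and 12.7 CPM. Among them *Tbx4* had 1 UMI in each library and *Cdx4* had 55 and 45 UMIs, with 53.3% of those in the *Yap1* cKO in a single cell. Most of the cells therefore carried early lateral and extraembryonic genes of their label, together with some genes of the heart lineage.

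**Figure D1:**
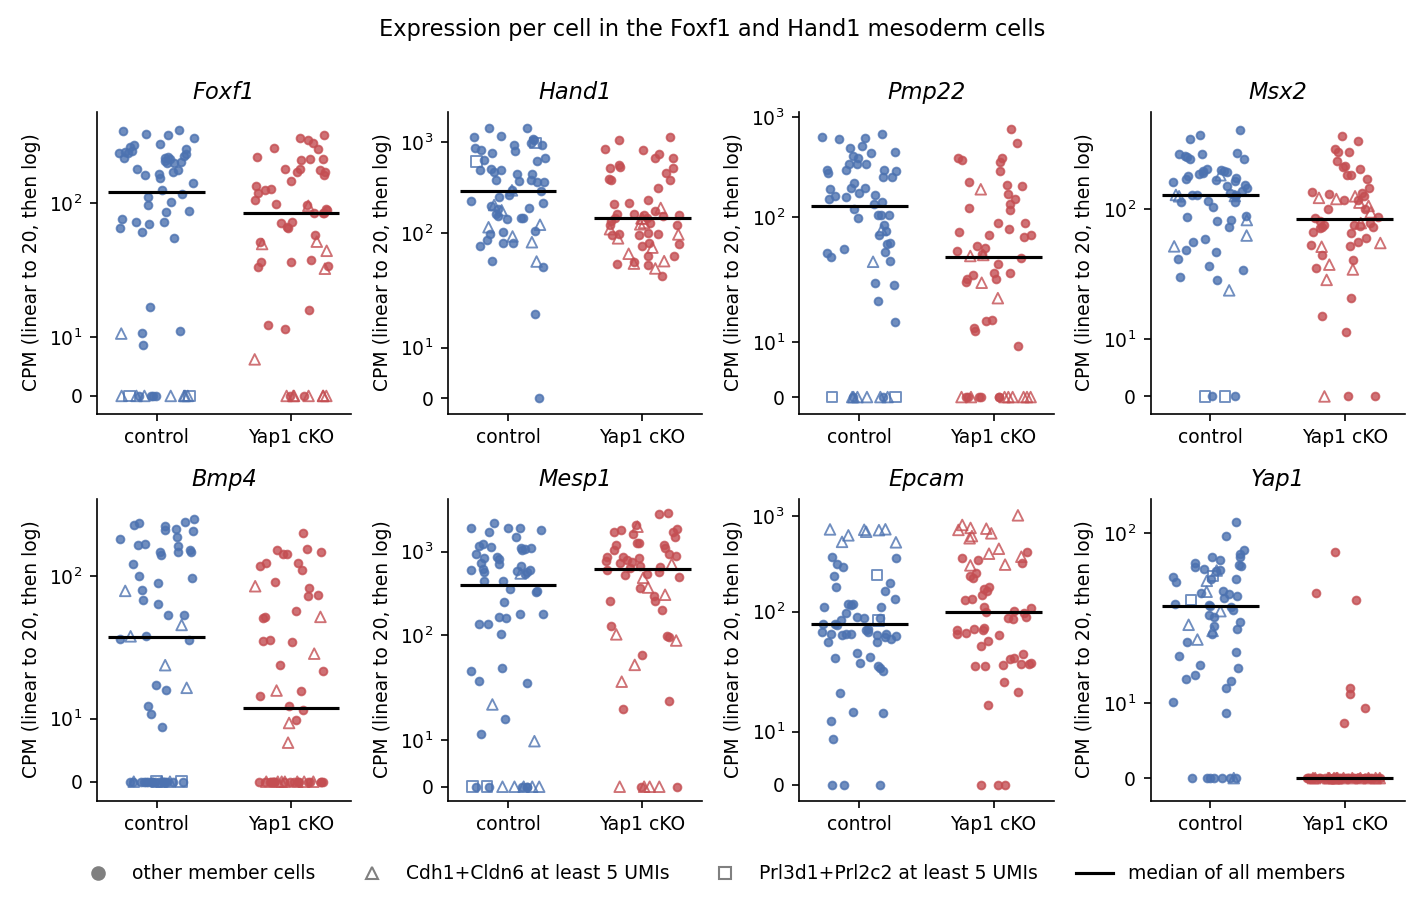
Expression per cell of 8 genes in the 62 control and 58 *Yap1* cKO member cells, in CPM on an axis that is linear to 20 and logarithmic above. Each point is a cell, triangles are cells with at least 5 UMIs of *Cdh1* and *Cldn6*, squares are cells with at least 5 UMIs of *Prl3d1* and *Prl2c2*, and the bar is the median over all member cells. The triangles sit high for *Epcam* and most of them low for *Foxf1* and *Pmp22*, and most *Yap1* cKO cells lie at 0 for *Yap1*.

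Not every cell that met the rule carried transcripts of mesoderm alone. With the values in view, cells with at least 5 UMIs of the epithelial genes *Cdh1* and *Cldn6* were set apart, and so were cells with at least 5 UMIs of the trophoblast giant cell genes *Prl3d1* and *Prl2c2*. The epithelial cells numbered 8 in the control (12.9% of the member cells and 13.1% of their UMIs) and 13 in the *Yap1* cKO (22.4% and 31.3%). Their *Epcam*, an epithelial adhesion gene, stood at 651 CPM in control cells and 569 CPM in *Yap1* cKO cells, against 82.3 and 106 CPM in the remaining member cells. Their *Pmp22* stood at 15.7 and 30 CPM, against 213 and 110 CPM in the remaining cells. *Msx2* was present in them too, at 103 and 62.2 CPM, against 177 and 127 CPM. *Foxf1*, a gene of the rule and so given as a description only, stood at 1.75 and 22.4 CPM in them and at 190 and 130 CPM in the remaining cells. *Foxf1* at 1 UMI or fewer together with no *Pmp22* was seen in 6 of the 8 and 8 of the 13. *Tfap2a*, a factor of surface ectoderm and amnion, stood at 41.9 and 21.7 CPM in the epithelial cells and at 0.82 and 0.956 CPM elsewhere.

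The 13 epithelial cells of the *Yap1* cKO were deep, with a median of 114965 UMIs against 68015 in the control, and 6 of them exceeded 120000 UMIs, a depth that no epithelial control cell reached. Of the epithelial cells, 7 in the *Yap1* cKO and 1 in the control also had at least 5 UMIs of *Mesp1* and *Mesp2*. Those 7 were unlike the other 6, with *Mesp1* at 518 against 7.32 CPM and *Pmp22* at 57.5 against 0 CPM. *Foxf1* stood at 41.5 against 1.46 CPM, as a description. Setting the epithelial cells apart thus also removed cells with mesoderm transcripts, more of them in the *Yap1* cKO. A doublet caller marked 0 control and 3 *Yap1* cKO member cells. The giant cell genes set apart 2 control cells, which held all 2051 *Prl3d1* UMIs (879 and 1172), had 38 and 81 *Hand1* UMIs and no UMI of *Foxf1*, *Msx2* or *Pmp22*. No *Yap1* cKO cell reached that limit. The other 52 control and 45 *Yap1* cKO cells are called the remaining member cells, and values without the cells set apart are given beside the results below.

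The libraries also differed in the sex of their cells. Of the control member cells, 40 (64.5%) carried Y-linked transcripts (at least 2 UMIs) and no *Xist*, 17 carried *Xist* (at least 2 UMIs) and no Y-linked transcripts, and 5 fell in neither class. Of the *Yap1* cKO member cells, 11 (19%) carried Y-linked transcripts, 45 carried *Xist* and 2 fell in neither class. *Mesp1* and *Mesp2*, which mark mesoderm that has just left the streak, reached at least 5 UMIs in 42 control cells (67.7%) and 46 *Yap1* cKO cells (79.3%). Sex, embryo and genotype cannot be told apart with 1 library each, and values within each class are given beside many of the results.

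The first comparison asked how far *Yap1* transcripts were lower in these cells. *Yap1* (chr9:7931999-8004596, minus strand, mm10) had 143 UMIs in the control member cells, 32.7 CPM (exact Poisson interval 27.6 to 38.5), and 14 in the *Yap1* cKO, 3.06 CPM (1.68 to 5.14). The ratio of *Yap1* cKO to control was 0.0937 (exact conditional binomial interval 0.05 to 0.162). *Yap1* was detected in 54 of 62 control cells and 7 of 58 *Yap1* cKO cells. After thinning, the shares were 66.7% (53.3 to 78.3) and 5.17% (1.08 to 14.4), against 54.6% and 3.29% in the epiblast gate. The ratio was 0.134 in the remaining member cells, and all 14 *Yap1* cKO UMIs lay in cells with at least 5 UMIs of *Mesp1* and *Mesp2*. Which stretch of *Yap1* the floxed allele loses is not given in the sources used here, and UMIs are read at the 3′ end of a transcript, so a transcript that loses an upstream stretch could still be counted.

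*Wwtr1*, which encodes the YAP1 relative TAZ, had 112 UMIs in control cells and 132 in *Yap1* cKO cells, 25.6 and 28.9 CPM, a ratio of 1.13 (0.870 to 1.46). Its interval held 1, so neither a modest gain nor a modest loss was detectable. In the extraembryonic ectoderm and visceral endoderm gates, the *Yap1* ratio was 0.732 and 0.818, and in the nascent mesoderm, epiblast and blood gates (the last with at least 5 UMIs of the blood genes) 0.0894, 0.0343 and 0.0739.

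The second comparison asked which genes differed between the member cells of the libraries. It covered 9531 genes with at least 50 UMIs over the member cells of both libraries. Of these, 391 were at least 1.5-fold higher in the *Yap1* cKO (4.1%) and 444 at least 1.5-fold lower (4.66%), and the interval left out 1 for 333 and 380 of them. The median over all compared genes was -0.01 on the log2 scale. Counted in the remaining member cells, 431 of the same genes were higher and 461 lower, without the 50-UMI minimum applied again. With it applied to those cells, 293 of 8767 genes were higher and 350 lower. The balance differed between the sex classes, where each class was held to the 50-UMI minimum on its own. In Y-carrying cells 337 of 7227 genes were higher and 979 lower. In *Xist*-carrying cells 556 of 8107 genes were higher and 272 lower.

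Hippo components and YAP1 feedback genes were lower in part in the *Yap1* cKO member cells. Of 15 compared genes of a 16-gene list, 6 were at least 1.5-fold lower and 0 higher, against 4.66% and 4.1% of all compared genes, and the list's median log2 ratio was -0.56. Among the 52 and 45 remaining cells the median was -0.44, again with 6 lower and 0 higher. It was -0.97 in Y-carrying cells and -0.14 in *Xist*-carrying cells. YAP1 targets and this list were picked for their known biology with earlier results in view.

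*Lats2*, the kinase that phosphorylates YAP1 and a known YAP1 target, had 113 control and 32 *Yap1* cKO UMIs, 25.8 and 7 CPM, a ratio of 0.271 (0.177 to 0.404). *Frmd6*, an upstream FERM-domain activator of the Hippo kinases, had 298 and 133 UMIs, a ratio of 0.427 (0.346 to 0.526). *Amotl2*, an angiomotin that holds YAP1 at cell junctions, had 150 and 68 UMIs, a ratio of 0.434 (0.321 to 0.582). The values without the cells set apart were close to these, at 0.258, 0.430 and 0.399, and within *Xist*-carrying cells the ratios were 0.289, 0.636 and 0.397.

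*Wwc2*, a KIBRA-family scaffold that activates LATS kinases, had 329 and 174 UMIs, a ratio of 0.506 (0.419 to 0.610). *Tead4* had 60 and 34 UMIs, a ratio of 0.542 (0.345 to 0.840) that stood at 0.81 in the remaining member cells. *Ptpn14*, a phosphatase that binds YAP1, had 88 and 56 UMIs, a ratio of 0.609 (0.428 to 0.861). The other members lay nearer to 1. *Amot* and *Tead1* were both at 0.680, short of the 1.5-fold mark, and *Tead2*, the TEAD gene with the most UMIs of the list, was at 1.04 (0.953 to 1.13) with 1007 and 1093 UMIs.

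Of 10 compared classic YAP1 target genes outside that feedback, 3 were lower and 1 higher (4.66% and 4.1% over all compared genes), with a median log2 ratio of -0.42 (-0.33 in the remaining member cells). The median was -0.90 in Y-carrying and 0.09 in *Xist*-carrying cells, so its sign differed between the sex classes. *Ccn1*, a secreted matrix protein gene, had 58 control and 11 *Yap1* cKO UMIs, 13.3 and 2.41 CPM, a ratio of 0.182 (0.0859 to 0.349). *Ajuba*, a LIM protein gene that acts on LATS kinases, had 154 and 59 UMIs, a ratio of 0.367 (0.267 to 0.498). *Ccn2* had 90 and 58 UMIs, a ratio of 0.617 (0.436 to 0.868). All 3 were also lower in the remaining member cells, at 0.227, 0.291 and 0.653. *Crim1*, a BMP-binding membrane protein gene, was higher, with 25 and 44 UMIs and a ratio of 1.68 (1.01 to 2.87), and its ratio was 1.31 in the remaining member cells, where the list had 0 genes higher and 4 lower. The *Crim1* ratio was 0.164 in Y-carrying and 8.04 in *Xist*-carrying cells.

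**Figure D2:**
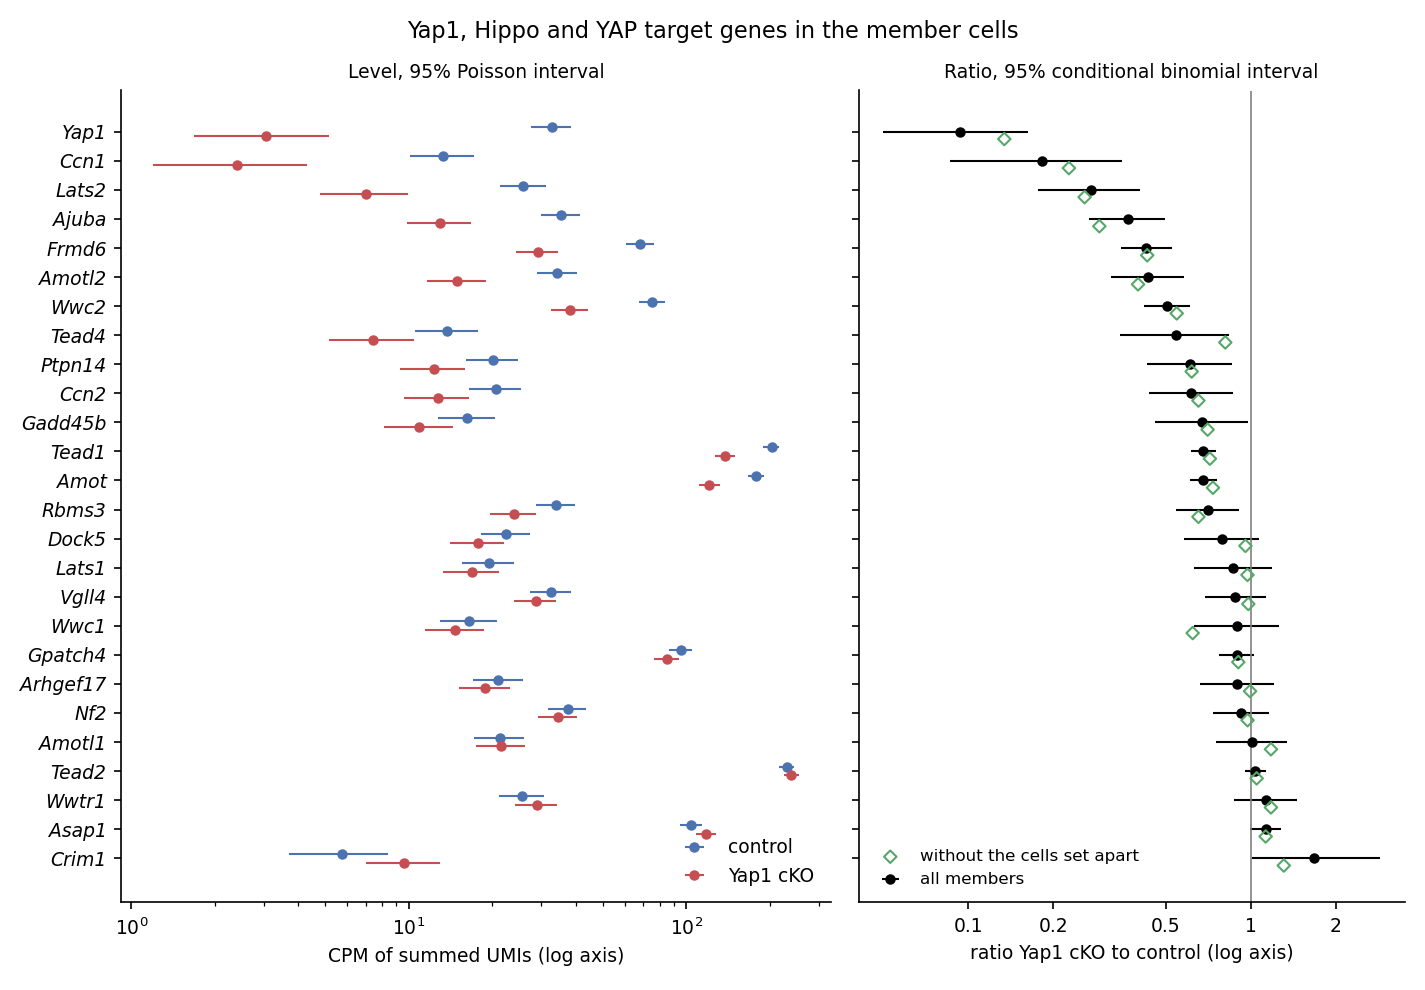
*Yap1*, Hippo and YAP1 target genes in the member cells, ordered by ratio. The left panel gives the summed CPM with its 95% Poisson interval in each library on a log axis, and the right panel the ratio of *Yap1* cKO to control with its 95% interval, with diamonds for the ratio without the cells set apart. *Yap1*, *Ccn1*, *Lats2* and *Ajuba* lie farthest to the left, and *Tead2* and *Wwtr1* lie near 1.

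Promoter sequence was read for these lists because TEAD factors bind DNA with the core letters GGAATG. The RefSeq windows (GRCm38.p6) ran from 250 bases before to 50 bases after each annotated start, and both strands were searched, as GGAATG or CATTCC. Of all windows, 4817 of 32851 (14.7%) held a match. The feedback list had a window for 14 of its genes, 7 of which had a match (9 of 19 windows, 47.4%), and the target list had a window for 13, of which 6 had one (7 of 15 windows, 46.7%). A match is a description of letters and not of binding. Of the 6 genes that were lower in the *Yap1* cKO member cells and held a match, the windows of 5 are shown in the direction of the gene, with the matches in capitals.
Lats2: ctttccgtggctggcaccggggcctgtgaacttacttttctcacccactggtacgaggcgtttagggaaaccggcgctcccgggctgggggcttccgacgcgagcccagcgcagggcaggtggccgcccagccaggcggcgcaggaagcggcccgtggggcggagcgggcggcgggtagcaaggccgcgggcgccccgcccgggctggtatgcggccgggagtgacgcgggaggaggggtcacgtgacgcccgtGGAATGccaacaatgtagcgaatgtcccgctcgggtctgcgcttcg
Amotl2: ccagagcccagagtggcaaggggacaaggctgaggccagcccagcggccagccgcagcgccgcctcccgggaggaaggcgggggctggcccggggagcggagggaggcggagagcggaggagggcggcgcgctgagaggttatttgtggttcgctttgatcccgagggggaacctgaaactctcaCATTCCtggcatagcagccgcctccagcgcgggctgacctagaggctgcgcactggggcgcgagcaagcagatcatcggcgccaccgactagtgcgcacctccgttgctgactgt
Wwc2: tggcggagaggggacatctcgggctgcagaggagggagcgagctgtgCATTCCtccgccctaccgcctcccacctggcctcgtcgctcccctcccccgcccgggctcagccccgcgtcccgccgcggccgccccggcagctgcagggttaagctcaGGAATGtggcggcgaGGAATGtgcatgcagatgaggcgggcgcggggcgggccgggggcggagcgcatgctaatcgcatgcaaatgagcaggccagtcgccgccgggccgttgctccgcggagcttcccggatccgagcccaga
Ajuba: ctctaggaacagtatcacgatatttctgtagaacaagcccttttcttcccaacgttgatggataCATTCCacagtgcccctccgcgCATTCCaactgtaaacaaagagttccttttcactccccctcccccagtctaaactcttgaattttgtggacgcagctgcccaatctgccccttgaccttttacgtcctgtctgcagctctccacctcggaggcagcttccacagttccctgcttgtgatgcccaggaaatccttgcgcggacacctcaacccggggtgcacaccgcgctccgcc
Ccn1: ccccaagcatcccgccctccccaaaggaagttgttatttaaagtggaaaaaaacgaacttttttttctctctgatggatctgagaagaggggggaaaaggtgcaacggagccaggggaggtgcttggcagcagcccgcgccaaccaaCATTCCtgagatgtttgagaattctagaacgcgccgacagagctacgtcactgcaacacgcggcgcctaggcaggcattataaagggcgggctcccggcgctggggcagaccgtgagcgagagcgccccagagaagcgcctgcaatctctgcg

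The *Lats2* window (chr14:57746074-57746373, minus strand) held its match just after the annotated start, at base +5. The *Amotl2* window (chr9:102717554-102717853, plus strand) held one at -65, counted to the first base of the match. The *Wwc2* window (chr8:47990495-47990794, minus strand) held 3, at -203, -94 and -79. The *Ajuba* window (chr14:54577612-54577911, minus strand) held 2, at -186 and -164, and the *Ccn1* window (chr3:145649936-145650235, minus strand) held 1, at -103. The *Ptpn14* window (chr1:189728018-189728317, plus strand), not printed, held 1 at -146. A further annotated start of *Lats2* had a window with 0 matches. Windows of *Wwtr1*, *Vgll4* and *Crim1*, which were not lower by 1.5-fold (ratios of 1.13, 0.883 and 1.68), also held a match. Windows of *Frmd6*, which was lower, and of *Tead2* and *Amotl1*, which were near 1, held no match.

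The same genes were set beside other gates of these libraries. In the extraembryonic ectoderm gate, where Sox2-Cre is not active, the ratios were 1.14 for *Lats2*, 0.861 for *Amotl2*, 0.986 for *Ajuba* and 0.927 for *Ccn1*. In the visceral endoderm gate *Lats2* was at 0.714 (0.488 to 1.06) and *Ajuba* at 1.10 (0.875 to 1.39), and both intervals held 1. The study considers its floxed embryos, control and *Yap1* cKO, likely heterozygous for *Yap1* in extraembryonic tissues, through deletion of the paternal allele. In the epiblast gate the ratios were 0.428, 0.285, 0.411 and 0.155, and in the nascent mesoderm gate 0.445, 0.485, 0.625 and 1.34, in the same gene order. In the blood gate they were 0.336, 0.324, 0.403 and 0.247. These gates come from the same 2 libraries, and the difference between gates was not tested.

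**Figure D3:**
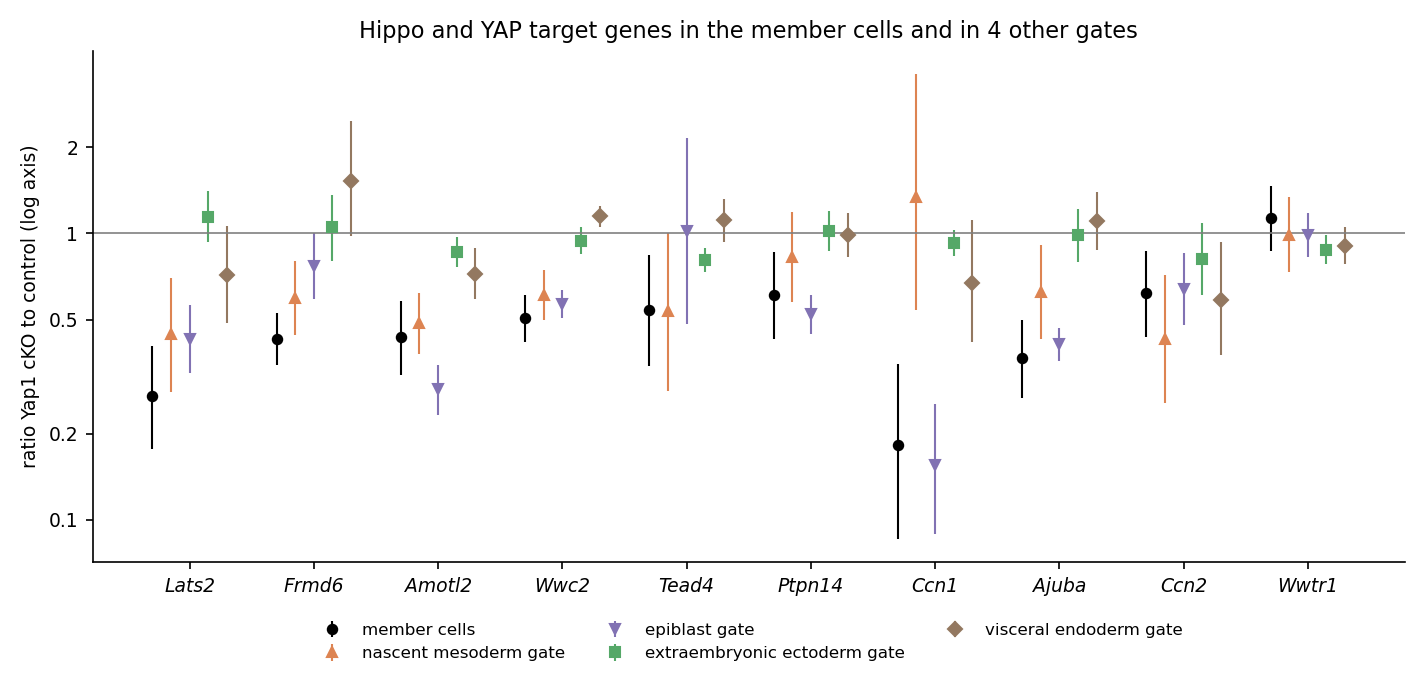
Ratio of *Yap1* cKO to control, on a log axis with 95% counting intervals, for 10 Hippo and YAP1 target genes in the member cells and in the nascent mesoderm, epiblast, extraembryonic ectoderm and visceral endoderm gates. *Lats2* lies at 0.271 in the member cells and at 1.14 in the extraembryonic ectoderm gate, and *Wwtr1* lies near 1 in each.

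Genes of the lateral and extraembryonic mesoderm were lower in part. Of 28 compared genes of this list, 10 were at least 1.5-fold lower and 1 higher in the *Yap1* cKO member cells, against 4.66% and 4.1% of all genes, with a median log2 ratio of -0.24. Over the remaining cells 7 were lower and 1 higher, with a median of -0.12. The median was -0.43 in cells with under 5 UMIs of *Mesp1* and *Mesp2* and -0.38 in the others, and -0.67 and -0.16 in Y-carrying and *Xist*-carrying cells.

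*Bmp4*, the BMP ligand of the extraembryonic mesoderm, had 371 control and 157 *Yap1* cKO UMIs, 84.8 and 34.4 CPM, a ratio of 0.405 (0.334 to 0.490). Its ratio was 0.434 in the remaining member cells, and 0.366 and 0.411 in cells below and above the *Mesp* limit. *Bmp4* was detected in 60.0% of thinned control and 41.4% of thinned *Yap1* cKO cells, and its median per cell was 28.7 and 11.7 CPM.

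*Pmp22* stood at 180 CPM in control cells and 85.1 CPM in *Yap1* cKO cells, a ratio of 0.473 (0.418 to 0.535) that was 0.518 in the remaining member cells. *Tbx20*, a T-box factor of lateral and cardiac mesoderm, had 396 and 199 UMIs, a ratio of 0.481 (0.404 to 0.572). *Tbx3*, a related T-box repressor, had 877 and 557 UMIs, a ratio of 0.608 (0.546 to 0.677). These 3 genes were lower in both *Mesp* classes and in both sex classes.

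*Msx2* stood at 161 and 106 CPM, a ratio of 0.659 (0.586 to 0.741) that was 0.715 in the remaining member cells, short of the 1.5-fold mark. *Fendrr* was at 0.623 (0.410 to 0.938), with a ratio of 0.236 in Y-carrying and 1.38 in *Xist*-carrying cells. *Ahnak*, which encodes a very large scaffold protein, had 137 and 13 UMIs, a ratio of 0.0908 (0.0472 to 0.161). In the nascent mesoderm and epiblast gates *Ahnak* was at 0.334 and 0.282, in the blood gate at 0.301, and in the extraembryonic ectoderm gate at 0.903.

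Other members of the list were near 1. *Pdgfra*, the PDGF receptor of early mesoderm, had 283 UMIs in each library, a ratio of 0.957 (0.809 to 1.13). *Kdr*, the VEGF receptor, was at 0.884 (0.762 to 1.03) with 378 and 349 UMIs, and *Hand2* was at 1.10 (0.782 to 1.56) with 66 and 76 UMIs. *Twist1*, a basic helix-loop-helix factor of mesenchyme, was higher, with 52 and 96 UMIs and a ratio of 1.77 (1.25 to 2.53). *Gata2* was at 0.319 (0.179 to 0.544) in all member cells and at 0.777 in the remaining ones, and the giant cells held 20 and 14 of its 57 control UMIs.

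Among BMP pathway genes, 6 of 21 compared were lower and 0 higher, against 4.66% and 4.1% of all genes, with a median log2 ratio of -0.16 (-0.12 in the remaining member cells, with 4 lower). The median was -0.39 among Y-carrying and -0.06 among *Xist*-carrying cells. *Smad6*, an inhibitory SMAD induced by BMP, had 396 control and 206 *Yap1* cKO UMIs, a ratio of 0.498 (0.419 to 0.591). *Nog*, which encodes the BMP antagonist noggin, had 33 and 19 UMIs, a ratio of 0.551 (0.296 to 0.998). The BMP response genes *Id3* and *Id1* were at 0.866 (0.810 to 0.926) and 1.10 (1.02 to 1.19). *Id2*, of the same family, had 153 and 238 UMIs, a ratio of 1.49 (1.21 to 1.84). In the remaining member cells *Id3*, *Id1* and *Id2* were at 0.678, 1.02 and 0.738, so *Id2* lay on the other side of 1 there.

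Imprinted genes were lower in part. Of 18 compared, 10 were at least 1.5-fold lower and 0 higher, against 4.66% and 4.1% of all genes, with a median log2 ratio of -0.63. Leaving the cells set apart out 8 were lower and 0 higher, with a median of -0.43. The median was -1.40 in Y-carrying and -0.28 in *Xist*-carrying cells. Imprinted genes are expressed from 1 parental copy, and many of them act in placental and fetal growth.

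*Peg10*, a retrotransposon-derived gene needed in the placenta, had 1006 control and 391 *Yap1* cKO UMIs, a ratio of 0.372 (0.330 to 0.419). *Mest* had 926 and 390 UMIs, a ratio of 0.403 (0.357 to 0.454). *H19* and *Igf2*, neighbours that share an imprinting control region, had 547 and 259 UMIs and 276 and 140 UMIs, with ratios of 0.453 (0.389 to 0.526) and 0.486 (0.393 to 0.597). Without the cells set apart these 4 genes were at 0.424, 0.414, 0.618 and 0.559.

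*Phlda2*, a growth-restraining gene of the placenta, had 11099 and 6212 UMIs, 2537 and 1360 CPM, a ratio of 0.536 (0.519 to 0.553). *Cdkn1c*, a cell cycle inhibitor gene, was at 0.469 (0.408 to 0.538) in all member cells and 0.797 in the remaining ones. *Snrpn* lay on the other side of 1, with 499 and 770 UMIs and a ratio of 1.48 (1.32 to 1.66), just short of the mark. In the extraembryonic ectoderm gate *Peg10*, *Mest*, *H19* and *Phlda2* were at 0.730, 0.635, 0.832 and 1.10. In the blood gate they were at 0.550, 0.506, 0.493 and 0.511, and in nascent mesoderm at 0.504, 0.767, 0.984 and 0.698, so lower values of these genes were not confined to the member cells.

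**Figure D4:**
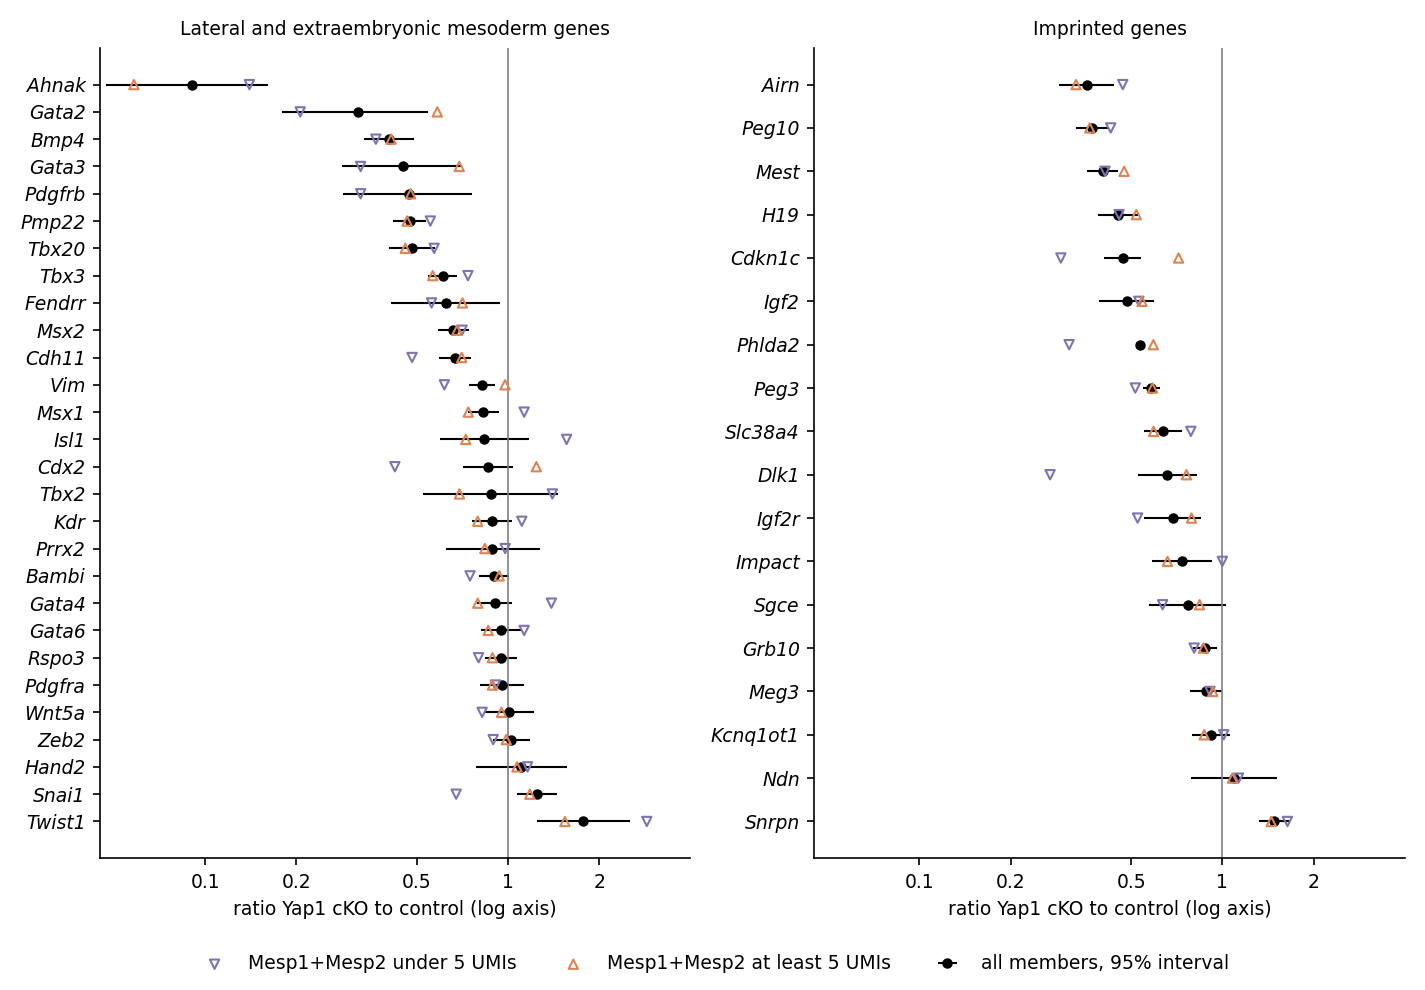
Ratio of *Yap1* cKO to control on a log axis for the compared lateral and extraembryonic mesoderm genes (left) and imprinted genes (right). Black points give all member cells with 95% counting intervals, and triangles the cells with fewer than 5 and at least 5 UMIs of *Mesp1* and *Mesp2*. *Bmp4*, *Pmp22* and *Tbx20* lie left of 1 in both classes, as do *Airn*, *Peg10* and *Mest*.

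Keratin genes and some actin genes were also lower. *Krt8* and *Krt18*, the paired keratins of simple epithelia and early extraembryonic mesoderm, had 1494 and 445 UMIs and 1246 and 294 UMIs, with ratios of 0.285 (0.256 to 0.317) and 0.226 (0.198 to 0.257). Among the 52 and 45 remaining cells they were at 0.374 and 0.237. *Krt8* was at 0.111 in Y-carrying and 0.525 in *Xist*-carrying cells, and *Krt18* at 0.0859 and 0.427. Of 26 compared actin cytoskeleton and smooth muscle genes, 6 were lower and 0 higher (4.66% and 4.1% over all genes), with a median log2 ratio of -0.28 (-0.13 in the remaining member cells, with 3 lower). *Tpm1*, a tropomyosin gene, had 1170 and 482 UMIs, a ratio of 0.394 (0.354 to 0.439) that was 0.517 in the remaining member cells. *Tagln*, a smooth muscle actin-binding protein gene, had 56 and 27 UMIs, a ratio of 0.462 (0.28 to 0.743).

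FGF ligands, receptors and ERK response genes were higher in part. Of 19 compared, 8 were at least 1.5-fold higher in the *Yap1* cKO member cells and 0 lower, against 4.1% and 4.66% of all genes, with a median log2 ratio of 0.30. Over the remaining cells 6 were higher and 0 lower, with a median of 0.28. The median was 0.18 in Y-carrying and 0.34 in *Xist*-carrying cells. *Dusp6*, an ERK phosphatase induced by FGF signalling, had 49 control and 144 *Yap1* cKO UMIs, a ratio of 2.81 (2.02 to 3.97) that was 3.53 in the remaining member cells. *Etv1*, an ETS factor of the same response, had 74 and 154 UMIs, a ratio of 1.99 (1.5 to 2.67). *Spry4*, an inhibitor of the pathway, had 37 and 66 UMIs, a ratio of 1.71 (1.13 to 2.63).

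The ligand genes *Fgf8* and *Fgf15* were at 1.46 (1.28 to 1.67) and 1.58 (1.18 to 2.12). *Fgf5*, a ligand of the epiblast, had 33 and 107 UMIs, a ratio of 3.10 (2.08 to 4.74), and was at 1.61 in the remaining member cells. The epithelial cells held 62.6% of its *Yap1* cKO UMIs and 12.1% of its control UMIs.

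Nascent mesoderm genes were higher in part, with 4 of 18 compared past the mark and 0 lower (4.1% and 4.66% over all genes), and a median log2 ratio of 0.37. Leaving the cells set apart out 8 were higher and 0 lower, with a median of 0.51. The median was 1.06 in Y-carrying and -0.08 in *Xist*-carrying cells, and -0.53 below the *Mesp* limit and 0.31 above it. *Lefty2*, a Nodal inhibitor of new mesoderm, had 111 and 223 UMIs, a ratio of 1.92 (1.52 to 2.44). *Dll3*, a Notch ligand gene, had 130 and 218 UMIs, a ratio of 1.61 (1.29 to 2.01). *Mesp1* itself was at 1.24 (1.18 to 1.31) with 2503 and 3246 UMIs, and its per-cell median was 402 CPM in control cells and 626 CPM in *Yap1* cKO cells. *T*, the brachyury factor of the streak, was at 1.36 (1.18 to 1.56) in all member cells and 2.02 in the remaining ones. The *Yap1* cKO also had the larger share of cells past the *Mesp* limit, and within those cells the *Lefty2*, *Dll3* and *Mesp1* ratios were 1.73, 1.56 and 1.11. In *Xist*-carrying cells *T* and *Mesp1* lay on the other side of 1, at 0.755 and 0.765.

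The epiblast list had the highest median and leaned on the cells set apart. Of 13 compared, 10 were at least 1.5-fold higher and 0 lower, against 4.1% and 4.66% of all genes, with a median log2 ratio of 1.02. Without the cells set apart 5 were higher and 1 lower, with a median of 0.21. The medians of the sex classes were 1.44 (Y) and 0.70 (*Xist*). *Pou3f1*, a POU factor of the epiblast, had 31 and 159 UMIs, a ratio of 4.91 (3.33 to 7.47) in all member cells and 0.699 in the remaining ones, and the epithelial cells held 94.3% of its *Yap1* cKO UMIs. *Utf1* went from 2.41 (1.83 to 3.19) to 0.194, and *Sox2* from 1.81 (1.21 to 2.76) to 0.728. *Pim2*, a kinase gene, and *Otx2*, a head and epiblast homeobox gene, stayed on the higher side, at 6.30 (4.15 to 9.91) and 2.66, and at 2.03 (1.60 to 2.59) and 1.81. *Pou5f1* and *Nanog* were near 1, at 1.13 (0.917 to 1.39) and 0.920 (0.711 to 1.19).

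The trophoblast list showed the reverse dependence. Of 10 compared, 7 were lower and 0 higher, against 4.66% and 4.1% of all genes, with a median log2 ratio of -0.99, and in the remaining member cells 2 were lower and 1 higher, with a median of 0.01. Without the 2 giant cells alone its median was -0.27. Those cells were set apart by trophoblast genes, so a move toward 0 without them was in part set by that choice. The list's median was -1.94 among Y-carrying and -0.12 among *Xist*-carrying cells. *Phlda2* was its most abundant gene, and *Prl3d1* was absent from all *Yap1* cKO member cells. Summed over the list, trophoblast genes stood at 3592 CPM in control cells and 1733 CPM in *Yap1* cKO cells, and *Tpbpa*, *Prl2c2*, *Gcm1* and *Rhox4b* were at 0. Amnion and surface ectoderm genes, the list that holds *Cdh1* and *Cldn6*, had 4 of 7 compared higher and 1 lower (4.1% and 4.66% over all genes), with a median of 0.65 and of 0.36 in the remaining member cells. That list summed to 260 CPM in control cells and 370 CPM in *Yap1* cKO cells, with *Epcam* its most abundant gene and none of its 10 genes at 0 in both libraries.

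Markers of blood and endothelium summed to 208 CPM in control cells and 170 CPM in *Yap1* cKO cells, with 1 of 7 compared higher and 3 lower (4.1% and 4.66% over all genes), and 0 higher and 1 lower in the remaining member cells. *Kdr* was the most abundant of them, and *Emcn*, *Sox18*, *Hbb-bh1* and *Hba-x* were at 0. The visceral endoderm list summed to 428 and 390 CPM, with *Apoe* the most abundant. It had 2 of 7 compared higher and 0 lower (4.1% and 4.66% over all genes), and 1 higher and 0 lower in the remaining member cells. Its median log2 ratio was -0.97 among Y-carrying and 0.58 among *Xist*-carrying cells. One *Yap1* cKO cell of 137657 UMIs held 95.1% of the 206 *Cer1* UMIs and of the 81 *Sox17* UMIs.

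Proliferation genes lay close to 1. None of 32 compared DNA replication genes and none of 28 compared mitosis genes was past 1.5-fold in either direction, where 4.1% and 4.66% of all genes were, and their medians were 0.05 and -0.04 on the log2 scale. Of 18 compared p53 target genes, 3 were higher and 1 lower, against the same shares, with a median of 0.06. *Bbc3*, which encodes the proapoptotic protein PUMA, had 9 and 47 UMIs, a ratio of 5.00 (2.42 to 11.6). *Pmaip1*, which encodes NOXA, had 130 and 216 UMIs, a ratio of 1.59 (1.27 to 1.99). *Cdkn1a*, the p21 gene, was at 0.634 with 163 and 108 UMIs.

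Glucose uptake and glycolysis genes had 2 of 26 compared higher and 3 lower, where 4.1% and 4.66% of all genes were, and the interval left out 1 for 1 of the 2 higher genes. *Slc2a1* and *Slc2a3*, the glucose transporter genes, had 1049 and 616 UMIs and 503 and 275 UMIs, with ratios of 0.562 (0.508 to 0.622) and 0.523 (0.450 to 0.607). *Ldhb*, a lactate dehydrogenase subunit gene, had 468 and 833 UMIs, a ratio of 1.70 (1.52 to 1.91). All 3 stood on the same side of 1 in the remaining member cells, at 0.5, 0.359 and 1.67, and in both sex classes.

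Of 28 compared VEGF, PDGF and guidance genes, 2 were higher and 7 lower (4.1% and 4.66% over all genes), with a median log2 ratio of -0.07. *Unc5c*, a netrin receptor gene, had 975 and 467 UMIs, a ratio of 0.459 (0.410 to 0.513). *Kitl*, the KIT ligand gene, had 99 and 35 UMIs, a ratio of 0.338 (0.223 to 0.502). *Sema6a*, a transmembrane semaphorin gene, was higher, with 90 and 223 UMIs and a ratio of 2.37 (1.85 to 3.06). Of 26 compared Wnt genes, 1 was higher and 2 lower, close to the 4.1% and 4.66% of all genes. *Nkd1*, a Wnt feedback inhibitor gene, was at 0.575 (0.491 to 0.673) and *Sfrp1*, a secreted Wnt antagonist gene, at 2.29 (1.73 to 3.07). *Sfrp1* was at 0.650 in Y-carrying and 1.67 in *Xist*-carrying cells.

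**Figure D5:**
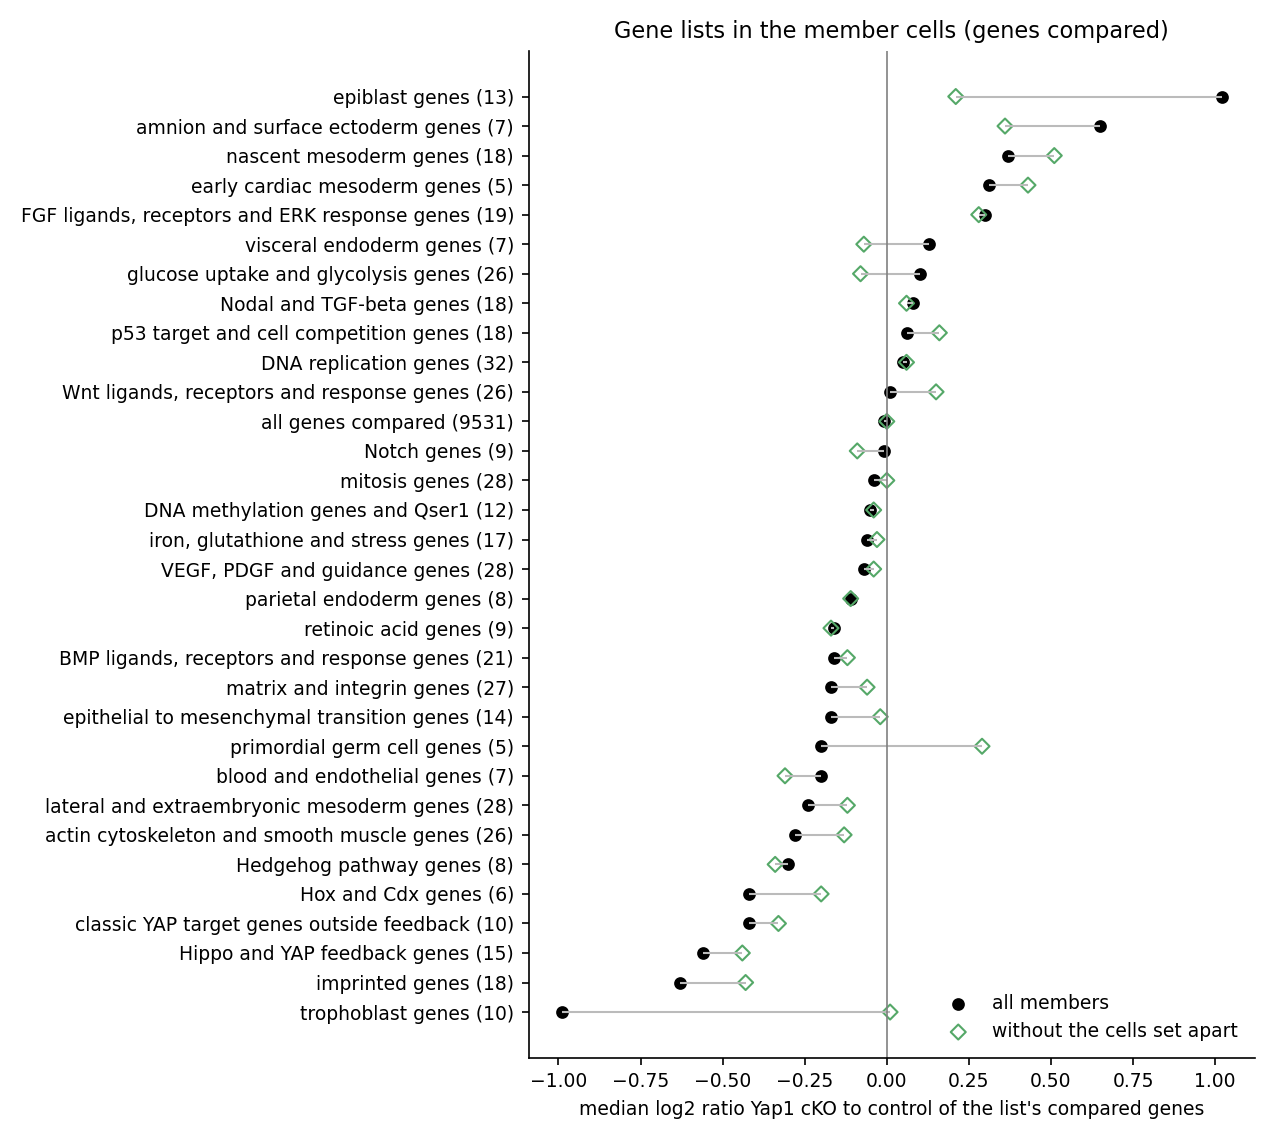
For each list, the median log2 ratio (*Yap1* cKO over control) over its compared genes, for lists with at least 5 such genes (number in brackets), in all member cells (circles) and without the cells set apart (diamonds). Imprinted, Hippo and YAP1 target lists lie left of 0 in both, and the epiblast and trophoblast medians move toward 0 without those cells.

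The other lists are given by their counts, to be read against 4.1% higher and 4.66% lower over all genes. Of 14 compared genes of the epithelial to mesenchymal transition, 4 were higher and 4 lower, with *Zeb1*, a zinc finger repressor of epithelial genes, at 0.576. Matrix and integrin genes had 1 of 27 compared higher and 4 lower, Nodal and TGF-beta genes 1 and 2 of 18, and Notch genes 2 and 0 of 9. Hedgehog genes had 0 higher and 2 lower of 8, retinoic acid genes 0 and 2 of 9, Hox and Cdx genes 0 and 2 of 6, and early cardiac genes 0 and 1 of 5. Iron, glutathione and stress genes had 2 higher and 2 lower of 17, DNA methylation genes with *Qser1* 1 and 0 of 12, and primordial germ cell genes 0 and 1 of 5. None of 8 compared parietal endoderm genes was past the mark, nor was *Cdx4*, the 1 compared allantois gene.

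Several of these counts changed in the remaining member cells, where 431 of all 9531 compared genes were higher and 461 lower. These counts keep the genes compared over all member cells, without the minimum applied again. Iron, glutathione and stress genes then had 1 higher and 0 lower, and DNA methylation genes 0 and 0. Hedgehog and Hox genes had 1 lower each and 0 higher, matrix genes 1 higher and 3 lower, and the transition genes 3 and 4. Nodal and TGF-beta genes had 2 higher and 1 lower, retinoic acid genes 1 and 2, and cardiac and germ cell genes 1 and 1 each, while Notch and parietal endoderm counts were as before. Of the lists above, amnion genes had 2 higher and 1 lower, glycolysis genes 1 and 4, Wnt genes 1 and 3, guidance genes 2 and 9 and p53 targets 4 and 1. Among mitosis genes 1 was lower.

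Among all compared genes with at least 100 UMIs, no cell holding over 20% of them and an interval without 1, the highest ratio was that of *Cdk5rap1* (chr2:154335380-154373010), which encodes an enzyme that modifies mitochondrial transfer RNAs. It had 27 control and 133 *Yap1* cKO UMIs, a ratio of 4.72 (3.10 to 7.42), and it was also higher in the nascent mesoderm, epiblast, extraembryonic ectoderm and visceral endoderm gates, at 2.10, 2.04, 1.63 and 3.64, and in the blood gate at 3.30. Its ratio was 1.29 in Y-carrying and 5.11 in *Xist*-carrying cells. *Pcsk1n* and *Wdfy1* followed at 3.22 and 3.19, and *Wdfy1* was at 0.624 in Y-carrying and 3.16 in *Xist*-carrying cells. *Zic5*, a zinc finger gene of the epiblast and neural plate, stood at 2.84 (2.06 to 3.96). The other genes of the highest 12 were *Fgf5*, *Dusp6*, *Npas3*, *Prkg1*, *Sntb1*, *Tpd52*, *Ina* and *Slc7a7*, from 3.10 down to 2.31. The limits left out *Pim2* and *Pou3f1*, whose ratios given above were higher than that of *Cdk5rap1*.

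Under the same limits, which left out *Yap1* and *Ahnak* because 1 cell held 35.7% and 53.8% of their *Yap1* cKO UMIs, the lowest ratio was that of *Spin2c* (chrX:153832225-153834243), an X-linked spindlin gene, with 891 control and 139 *Yap1* cKO UMIs, 204 and 30.4 CPM, a ratio of 0.149 (0.124 to 0.179). Its ratio was 0.119 in Y-carrying and 0.155 in *Xist*-carrying cells, and 0.744, 0.850 and 1.42 in the nascent mesoderm, epiblast and extraembryonic ectoderm gates. It was also lower in the blood gate, at 0.375 (0.325 to 0.432), and in the visceral endoderm gate, at 0.624. Of the 12 lowest genes 4 were X-linked, *Spin2c*, *C430049B03Rik*, *Morc4* and *Gm21887*, and each was lower within both sex classes. X-linked genes made up 350 of the 9531 compared genes (3.67%), 28 of the 444 lower and 23 of the 391 higher ones, and *Pcsk1n*, among the 12 highest, is X-linked as well. *C430049B03Rik* and *Morc4* stood at 0.0377 and 0.0907 in Y-carrying and at 0.424 and 0.552 in *Xist*-carrying cells. *Krt18*, *Krt8*, *Lats2*, *Ajuba* and *Airn* were also among the 12, with *Hoxd1* at 0.356 (0.224 to 0.552), *Podxl* at 0.366 (0.289 to 0.459) and *Gm11290* at 0.291 (0.184 to 0.449). *Podxl* was at 0.162 in Y-carrying and 0.882 in *Xist*-carrying cells, and *Hoxd1* at 0.205 and 0.690, so neither passed the 1.5-fold mark in *Xist*-carrying cells.

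The member cells were next set against the nascent mesoderm gate, cells with at least 5 UMIs of *Mesp1* and *Mesp2* but fewer than 5 of *Foxf1*, *Hand1* and *Tdo2* (48 control and 66 *Yap1* cKO cells). Since the gates chose both groups by their transcripts, this is a description. Of 9089 genes compared, 342 (3.76%) were at least 1.5-fold higher in the member cells in both libraries and 180 (1.98%) lower in both. *Bmp4* stood at 84.8 CPM in the control member cells and 2.19 CPM in nascent mesoderm, a ratio of 38.6 (19.4 to 90.2), and at 34.4 and 2.56 CPM in the *Yap1* cKO, a ratio of 13.4 (7.75 to 25.1). *Plac1*, an X-linked placental gene, had ratios of 120 (32.9 to 996) in control cells and at least 40.6 in *Yap1* cKO cells, where nascent cells had 0 UMIs and the floor of 3 UMIs over the group was used. The 2 giant cells held 15.3% and 25.7% of its control UMIs, and without the cells set apart the control ratio was 83.2 (22.7 to 693) and the *Yap1* cKO ratio at least 55.7. *Unc5c*, *Pmp22* and *Igf2* had ratios of 35.3, 15.6 and 11.5 in the control and 15.1, 10.1 and 7.96 in the *Yap1* cKO. In the member cells they stood at 223, 180 and 63.1 CPM in the control and 102, 85.1 and 30.6 CPM in the *Yap1* cKO. In the blood gate they stood at 152, 126 and 81.2 CPM and at 89.7, 77.3 and 46.1 CPM. *Bmp4* was at 46.6 and 34.9 CPM there, so these genes were not confined to the member cells.

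Lateral and extraembryonic mesoderm genes were higher than in nascent mesoderm in both libraries for 13 of 22 compared, and BMP genes for 9 of 17. Imprinted genes were higher for 8 of 18, with medians of 1.03 in control cells and 0.49 in *Yap1* cKO cells on the log2 scale. Nascent genes were lower for 13 of 18 and FGF genes for 10 of 20. *Mesp1* and *Mesp2* set the nascent mesoderm gate itself, so they are no independent part of such a count. Over all 9089 genes compared, 3.76% were higher and 1.98% lower in both libraries. *Apln*, a peptide ligand gene of new mesoderm, was at 0.0746 in control cells and 0.160 in *Yap1* cKO cells, and *Lefty2* at 0.0816 and 0.227. *Fgf8* was at 0.336 and 0.339, with intervals that overlapped between the libraries. Without the cells set apart, 365 of the 9089 genes were higher and 266 lower in both libraries. On that footing 13 lateral mesoderm, 7 BMP and 10 imprinted genes were higher, and 10 nascent and 9 FGF genes lower.

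Within the member cells, those with fewer than 5 UMIs of *Mesp1* and *Mesp2* (20 control and 12 *Yap1* cKO) were set against the others. Of 7459 genes compared, 201 (2.69%) were at least 1.5-fold higher in both libraries and 257 (3.45%) lower in both. *Mt1*, a metallothionein gene, stood at 217 and 3.66 CPM in the control, a ratio of 59.2 (32.6 to 120), and at 128 and 3.69 CPM in the *Yap1* cKO, a ratio of 34.5 (19.5 to 66.5). *Krt18* had ratios of 7.53 and 4.22, *Wfdc2* of 4.65 and 3.65, *Epcam* of 3 and 2.82, and *Mest* of 2.75 and 2.38. The class below the *Mesp* limit held 7 of the 8 epithelial control cells (7 of its 20 cells), 6 of the 13 epithelial *Yap1* cKO cells (6 of its 12) and both giant cells. These epithelial cells alone held 46.1% of the *Epcam* UMIs of control member cells and 43.1% of those of *Yap1* cKO member cells.

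The class below the limit was therefore also counted without the cells set apart, which left 11 control and 6 *Yap1* cKO cells. *Mt1* then had 3 and 1 UMIs below the limit, with ratios of 1.17 (0.207 to 4.54) and 0.943 (0.0213 to 7.03), and *Epcam* stood at 0.910 (0.669 to 1.22) and 0.749 (0.497 to 1.09). The higher levels of both genes below the limit were thus not seen without those cells. *Wfdc2* was at 3.13 and 1.36 and *Bex1*, at 2.99 and 2.44 over all member cells, at 2.92 and 0.967. *Krt18* remained higher at 7.93 and 10.2, as did *Mest* at 4.79 and 5.77 and *Unc5c* at 3.73 and 8.85. Of the 7459 genes, 260 were higher and 405 lower in both libraries when counted in this way.

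Genes that were lower in the same class included *Lhx1*, a LIM homeobox gene of new mesoderm, at 0.0271 in control cells and 0.0147 in *Yap1* cKO cells. *Tdgf1*, the Nodal coreceptor gene, was at 0.108 and 0.118, *Mixl1* at 0.126 and 0.0690, and *Cyp26a1*, which encodes a retinoic acid degrading enzyme, at 0.120 and 0.00933. *Lefty2* had 1 control UMI and 0 *Yap1* cKO UMIs below the limit, with a *Yap1* cKO ratio of at most 0.045. Nascent genes were lower for 13 of 14 compared, of which *Mesp1* was set by the split itself, and lateral mesoderm genes for 10 of 22, while imprinted genes were higher for 5 of 18 and epiblast genes for 5 of 8. Wnt genes were lower for 10 of 24. Over all 7459 genes compared, 2.69% were higher and 3.45% lower in both libraries. Without the cells set apart, 6 lateral mesoderm genes were higher and 4 lower, with medians of 0.14 in control cells and 0.27 in *Yap1* cKO cells, whereas over all member cells 2 were higher and the medians were -0.45 and -0.65, so the sign of the list's median turned. On the same footing 13 nascent and 12 Wnt genes were lower, while 8 imprinted genes and 1 epiblast gene were higher and 3 epiblast genes lower. Of all 7459 genes, 260 were higher and 405 lower in both libraries on that footing. *Lhx1* and *Tdgf1* were then at 0.0482 and 0.110 in control cells and 0.0377 and 0.0580 in *Yap1* cKO cells.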

How the data were processed

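Cells of pooled E7 embryos were profiled with droplet 3′ chemistry, 1 library per genotype. The deposited count matrices hold whole UMI counts per gene and cell, made by the authors with Cell Ranger 7.1.0 on mm10 per the submitters' processing notes, and no normalization had been applied to them. Per the study's methods the authors checked for doublets and free RNA after this step and filtered out doublets, and neither step is in the files. From the counts, cells with at least 5000 detected genes and at most 10% mitochondrial UMIs were kept, which left 791 of 1829 control and 864 of 1897 *Yap1* cKO barcodes, and the gates described above were applied. Doublets were kept in the main values and left out as an alternative (scrublet in scanpy 1.11.5 called 4 control cells, 0.506%, and 19 *Yap1* cKO cells, 2.2%). Free RNA, estimated from 433 and 304 nearly empty barcodes, was put at 0.29% and 0.0936% of member UMIs.

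UMIs were summed over the member cells of a library and given as CPM of that sum. Intervals were exact at 95%: Poisson for a level, conditional binomial for a ratio and Clopper-Pearson for a share. A ratio was the *Yap1* cKO CPM over the control CPM, and genes needed 50 UMIs over both libraries. With 1 library per genotype no test of genotype was possible. Mitochondrial genes, *Xist*, *Tsix* and Y-linked genes were left out. Named genes were those of 32 lists together with the extremes of each comparison (12 each way between genotypes and between *Mesp* classes, 15 each way against nascent mesoderm). The members and lists were chosen with earlier results of these data known, and the cells set apart were chosen after their values were seen. Gene coordinates came from GENCODE M21 for mm10 (32235 of 32285 genes), and promoter windows from RefSeq on GRCm38.p6. The code (Python 3.11.15, numpy 2.4.6, scipy 1.17.1, pandas 2.3.3) was tested on simulated data. Because strand of counting is not given in the sources used here, antisense pairs such as *Airn* and *Igf2r* are uncertain, as are near copies such as *Spin2c* and the *Gm* genes. Alternatives changed each limit of the gate (that on extraembryonic ectoderm genes after the data were seen), the gene filter, doublets, free RNA, sex class and *Mesp* class.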

Additional observations from a re-analysis of the deposited data

Results flagged for a closer look

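Barcodes with at least 2000 but under 5000 detected genes were outside every comparison above. Of 300 such barcodes in the control, 21 met the limits of the *Foxf1* and *Hand1* gate, and of 413 in the *Yap1* cKO, 22 met them. They are given because they carry the gate's transcripts in data that the comparisons did not use. With these barcodes added the shares were 7.61% and 6.26%, and the *Yap1* ratio was 0.0923.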

How the results depend on the processing

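No paired analysis was possible because each genotype had 1 library. The shares of member cells were 8.85% of control and 8.68% of *Yap1* cKO cells with at least 3 UMIs of *Foxf1*, *Hand1* and *Tdo2* and 6.19% and 4.51% with at least 10, and fewer than 3 blood UMIs gave 5.94% of control and 4.98% of *Yap1* cKO cells. Member cells below the *Mesp* limit were 2.53% and 1.39% of all cells, and those above it 5.31% and 5.32%. The *Yap1* cKO cells below the limit had 0 *Yap1* UMIs, so no *Yap1* ratio is given for them. Extraembryonic ectoderm limits of 3 and of 10 UMIs, added after seeing the data, each gave the same 62 and 58 cells. Y-carrying cells gave 337 higher and 979 lower genes of 7227 and a *Yap1* ratio of 0.0343. *Xist*-carrying cells gave shares of 5.11% and 6.73% (of cells of that class), the *Yap1* cKO now the higher. They had 556 higher and 272 lower genes of 8107. A minimum of 20 UMIs per gene gave 835 higher and 826 lower genes of 11461, and a minimum of 200 gave 77 and 122 of 5765. With 1 UMI in each library, 2152 and 2071 of 15823 genes were higher and lower. The median ratio of genes with at least 200 UMIs was 0.99. For the 124 genes past 1.5-fold with an interval without 1, under 21 alternatives, 2393 values could be had: 2052 stayed within the counting interval, 330 left it in the same direction and 11 crossed 1, in 6 genes. Those were *Junb* (1.08 above the *Mesp* limit, 1.18 in *Xist*-carrying cells, 1.04 without giant cells), *Tfap2c* (1.32, 1.02 and 1.3 in the same order), *Dlk1* (1.06 in *Xist*-carrying cells, 1.14 with fewer than 3 blood UMIs), and in *Xist*-carrying cells *Jag1* (0.837) and *P4ha2* (1.05). *T* and *Mesp1*, short of 1.5-fold and so outside this tally, also crossed to 0.755 and 0.765 in *Xist*-carrying cells. *Utf1* was at 0.801 with the gate set on thinned cells. Genes under 50 UMIs in an alternative gave no value and are not in the tally, though some crossed 1 there (*Pou3f1*, 0.699, and *Sox2*, 0.728, in the remaining member cells, *Fendrr*, 1.38, in *Xist*-carrying cells, and *Wdfy1*, 0.624, and *Crim1*, 0.164, in Y-carrying cells). *Utf1* in the remaining member cells and *Sfrp1* in Y-carrying cells crossed 1 outside the tally as well, as given above. The causes were not tested. Depth limits genes of few UMIs, such as *Crim1* and *Nog*, whose intervals reach close to 1.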

Other observations

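Set against the blood and endothelial progenitor gate, cells with at least 5 UMIs of *Tal1*, *Lmo2*, *Etv2* and *Fli1*, the member cells had more *Igfbp3*, a growth factor binding protein gene, at ratios of 26.5 in control and 8.57 in *Yap1* cKO cells. *Dlk1*, an imprinted Notch ligand relative, was at 3.12 and 4.82, and *Cdx2*, a caudal homeobox gene, at 2.77 and 4.91. *Runx1*, a factor of blood formation, was at 0.223 and 0.270, and *Ramp2*, a receptor subunit gene of vessels, at 0.0698 and 0.164. Both gates were set on transcripts of these cells, so the values are a description.

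Single genes of other pathways stood apart between the genotypes. *Hoxd1*, a homeobox gene, had 78 control and 29 *Yap1* cKO UMIs. *Rarb*, a retinoic acid receptor gene, was at 0.383 (0.209 to 0.675), and *Wnt4* at 0.443 (0.264 to 0.725). *Hmox1*, the heme oxygenase gene, was at 0.230 in all member cells and at 0.672 in the remaining ones, and 1 control cell held 50.3% of its UMIs.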
